A study of Mus musculus with 4 samples.

Results

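The nuclear lamina and envelope genes described here are 10 named genes: the lamins Lmna, Lmnb1 and Lmnb2, the inner membrane and LEM-domain genes Lbr, Emd, Lemd3 and Tmpo, and the LINC genes Sun1, Sun2 and Syne2. They were taken by symbol from the deposited table of 22690 genes, and all 10 were found in it and passed the filter on low levels, as 10 of 14480 genes tested. The RNA came from retinas of C57BL/6 mice at postnatal day 2, whose cells were taken from fresh tissue, held briefly in serum-free medium and sorted by flow for 4N DNA, as in cells between replication and division. GFP-positive cells labelled Casz1 cKO (2 libraries) were set against GFP-negative cells labelled wild type (2 libraries), so genotype and GFP gate cannot be told apart. Per the series title, the study addresses the transcripts of Casz1 mutant progenitors, and its design text speaks of 2 independent experiments. Casz1 is a zinc finger transcription factor and cKO stands for a conditional knockout; no source used here gives the allele, the means of recombination, the origin of the GFP or the number of animals per library. Since nothing ties the libraries of a group to separate animals, p-values measure only the spread between these libraries. Libraries are named A or B after a tag in their column names, and each tag occurs on 1 cKO and 1 wild-type library.

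The lamina is a meshwork of intermediate filament proteins under the inner nuclear membrane. B-type lamins, from Lmnb1 and Lmnb2, stay attached to the membrane and are made in nearly all cells, while the A-type lamins A and C are splice products of Lmna and increase as many cell types mature. The lamin B receptor, from Lbr, and A-type lamins are known as tethers of heterochromatin at the nuclear edge. Mature mouse rod photoreceptors lack both tethers, and their nuclei are turned inside out, with heterochromatin in the centre. LEM-domain proteins bind a chromatin protein made by Banf1, and SUN and nesprin proteins form the LINC complex, which joins the lamina to the cytoskeleton and moves nuclei in retinal progenitors.

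The start regions of Lbr, Tmpo and Lmna are shown because Lbr and Tmpo ran together over the 4 libraries and Lmna ran apart from them. Each holds 250 bases before and 50 after a RefSeq start on GRCm38.p6, on the gene's own strand, 5′ to 3′, and RefSeq start regions were matched for 9 of the 10 genes, all but Lmnb1. Capitals mark matches on either strand to CCAAT, to TTTGAA, the cell cycle homology region of genes active in dividing cells, or to TTTNNCGC, a form of the E2F motif; no base of those shown lies in matches to more than 1 motif. The Lbr region is chr1:181842352-181842651, the Tmpo regions are chr10:91171570-91171869 and chr10:91170501-91170800, and the Lmna region is chr3:88503303-88503602, all on the minus strand. All of these lie inside the annotated bounds of their genes. The annotated 5′ ends are at 181843046 for Lbr, 91181315 for Tmpo and 88509956 for Lmna. Starts further upstream are thus not covered.
Lbr: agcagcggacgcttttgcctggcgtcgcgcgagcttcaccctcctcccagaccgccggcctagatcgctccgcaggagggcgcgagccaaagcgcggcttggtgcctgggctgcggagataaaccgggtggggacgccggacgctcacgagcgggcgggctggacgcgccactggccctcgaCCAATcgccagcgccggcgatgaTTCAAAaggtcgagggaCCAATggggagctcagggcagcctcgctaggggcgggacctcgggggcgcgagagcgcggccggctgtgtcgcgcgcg
Tmpo, upstream start: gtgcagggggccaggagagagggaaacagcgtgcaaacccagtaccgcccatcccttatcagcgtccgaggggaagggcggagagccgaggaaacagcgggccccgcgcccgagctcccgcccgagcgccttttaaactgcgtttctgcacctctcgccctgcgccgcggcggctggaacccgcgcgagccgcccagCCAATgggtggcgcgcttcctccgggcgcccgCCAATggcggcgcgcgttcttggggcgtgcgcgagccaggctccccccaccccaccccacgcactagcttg
Tmpo, downstream start: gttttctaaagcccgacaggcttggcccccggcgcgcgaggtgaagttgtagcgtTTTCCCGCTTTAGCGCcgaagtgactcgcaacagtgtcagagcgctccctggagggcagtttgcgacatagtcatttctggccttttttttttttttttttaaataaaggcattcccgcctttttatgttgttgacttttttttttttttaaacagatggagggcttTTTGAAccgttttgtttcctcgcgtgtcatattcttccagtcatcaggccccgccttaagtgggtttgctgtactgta
Lmna: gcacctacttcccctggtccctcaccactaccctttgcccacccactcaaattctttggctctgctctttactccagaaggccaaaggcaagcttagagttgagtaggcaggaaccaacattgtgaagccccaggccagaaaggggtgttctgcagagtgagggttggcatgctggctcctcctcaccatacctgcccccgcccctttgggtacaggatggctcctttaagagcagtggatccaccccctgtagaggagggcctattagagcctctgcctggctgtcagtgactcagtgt
The Lbr region held 2 matches to CCAAT and 1 to TTTGAA, and none to TTTNNCGC. The upstream Tmpo region held 2 matches to CCAAT, and the downstream one held 1 to TTTGAA and 2 to TTTNNCGC. The Lmna region shown held 0 matches to these motifs, which says only that these letters are not in this window, and the other Lmna region, chr3:88493263-88493562, held 1 to CCAAT. Matches and profiles did not go together in every gene: both Lmnb2 regions held 0, although Lmnb2 ran with Lbr, and Sun2 held 2 to CCAAT and 1 to TTTGAA, the counts of Lbr, although it ran apart from it. The Sun1 regions held 2 and 1 matches to CCAAT, the Emd and Lemd3 regions 1 each, and the Syne2 region 0 to any of the motifs. Over all 32851 RefSeq start regions of the same length, 37.4% held CCAAT, 17.9% held TTTGAA and 5.17% held TTTNNCGC. The GC content was 72.0% for Lbr, 71.7% for the upstream and 46.3% for the downstream Tmpo region, and 56.3% for Lmna.

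Values are normalized read counts, the reads of a gene divided by 1 size factor per library. Reads in genes numbered 22326119 in cKO library A and 75832360 to 89473701 in the other libraries. cKO library A stands apart: its Pearson correlation with the others across tested genes on the log2 scale was 0.902 to 0.918, where pairs of the other 3 gave 0.988 to 0.993. The 10 genes and the lists are therefore also given within each tag, and the calls without each library are given with the counts. Casz1 itself had normalized counts of 8687 and 10772 in cKO libraries A and B, against 13162 and 11995 in wild-type libraries A and B. Its log2 fold change was −0.38 (standard error, SE, 0.19; limma, adjusted p = 0.771), with a log2 ratio of cKO over wild type of −0.60 within tag A and −0.16 within tag B. Reads over the whole gene do not measure a deleted part of it. All 10 retinal progenitor markers were detected in all 4 libraries. Their summed normalized counts were 636700 and 509300 in cKO libraries A and B, against 466550 and 460910 in wild-type libraries A and B. Ccnd1 was the largest part of these sums. It had 388895 and 253407 in cKO libraries A and B, against 235937 and 223698 in wild-type libraries A and B. The sums thus say little about the other markers. Of the 10 markers 8 were higher in cKO and 2 lower, beside 46.7% of all tested genes that were higher. Pax6 had 35093 and 69539 in cKO libraries A and B, against 48629 and 61512 in wild-type libraries A and B.

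Lmna, the gene of the A-type lamins, differed more between the tags than between the groups. Lmna (ENSMUSG00000028063, chromosome 3, 88480147 to 88509956 of GRCm38, minus strand) had normalized counts of 838 and 2469 in cKO libraries A and B, against 1306 and 2535 in wild-type libraries A and B. Both A libraries were low and both B libraries were high, so the groups overlap. The B library held 2.95 times the A value in cKO and 1.94 times in wild type. The mean was 1653 ± 1153 (SD, n = 2) in cKO and 1920 ± 869 (SD, n = 2) in wild type, and the log2 fold change was −0.34 (SE 0.58; limma, adjusted p = 0.836). Within tag A the log2 ratio of cKO over wild type was −0.64, and within tag B it was −0.04. The log2 fold change was 0.44 without cKO library A, 0.14 without wild-type library B, −0.82 without wild-type library A and −1.12 without cKO library B. Of all 14480 tested genes 4.84% were, like Lmna, lower in the A library by over 0.5 on the log2 scale in both groups, a limit chosen after the Lmna values were seen. Counts are per gene and do not separate lamin A from lamin C. In bulk samples fewer cells of a type and less RNA per cell cannot be told apart.

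The B-type lamins were high in cKO library A and closer together in the other libraries. Lmnb1 (ENSMUSG00000024590, chromosome 18, 56707813 to 56753424, plus strand), the B-type lamin abundant in dividing cells, had 62503 and 39360 in cKO libraries A and B, against 42024 and 36523 in wild-type libraries A and B. cKO library B lay between the wild-type libraries, so the groups overlap. Its means were 50931 ± 16364 (SD, n = 2) in cKO and 39274 ± 3889 (SD, n = 2) in wild type, with a log2 fold change of 0.34 (SE 0.27; limma, adjusted p = 0.771). Lmnb2 (ENSMUSG00000062075, chromosome 10, 80901203 to 80918245, minus strand), the other B-type lamin, had 8030 and 5770 in cKO libraries A and B, against 6462 and 5487 in wild-type libraries A and B. Here too cKO library B lay between the wild-type libraries. The log2 fold change of Lmnb2 was 0.19 (SE 0.23; limma, adjusted p = 0.785). Without cKO library A the log2 fold changes were 0.0067 for Lmnb1 and −0.046 for Lmnb2.

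**Figure D1:**
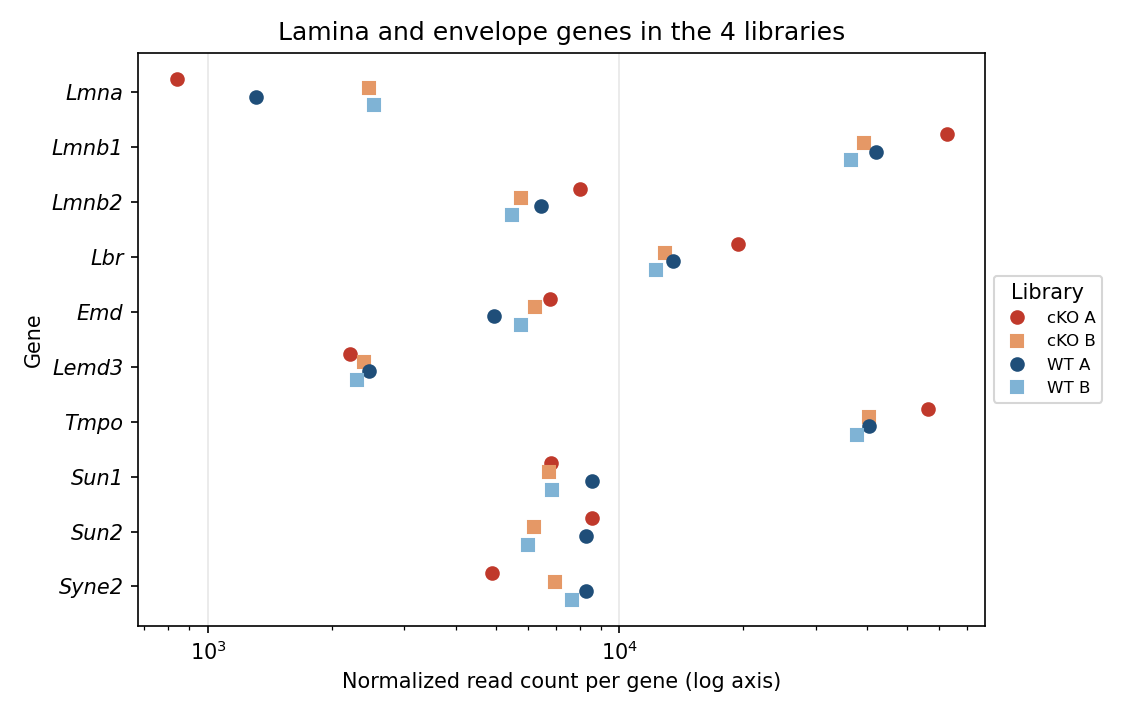
Normalized read counts per gene on a log axis for the 10 genes (rows), with 1 point for each of cKO libraries A and B and wild-type libraries A and B. Lmna shows both A libraries at 838 and 1306 and both B libraries at 2469 and 2535, while Lmnb1, Lmnb2, Lbr and Tmpo show cKO library A to the right of the other libraries.

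Among the inner membrane genes, Lbr and Tmpo followed the pattern of Lmnb1, Emd was higher in both cKO libraries, and Lemd3 hardly varied. Lbr (ENSMUSG00000004880, chromosome 1, 181815335 to 181843046, minus strand), the lamin B receptor and a sterol reductase, had 19421 and 12896 in cKO libraries A and B, against 13528 and 12263 in wild-type libraries A and B. The groups overlap, since cKO library B lay between the wild-type libraries. Its log2 fold change was 0.30 (SE 0.25; limma, adjusted p = 0.771), and it was 0.0017 without cKO library A. Tmpo (ENSMUSG00000019961, chromosome 10, 91147571 to 91181315, minus strand) encodes the LAP2 proteins, LEM-domain proteins that bind lamins. It had 56174 and 40508 in cKO libraries A and B, against 40491 and 37740 in wild-type libraries A and B. The groups do not overlap, but cKO library B lay only just above wild-type library A. The log2 fold change of Tmpo was 0.29 (SE 0.23; limma, adjusted p = 0.771); without cKO library A it was 0.05.

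Emd and Lemd3 had values closer together. Emd (ENSMUSG00000001964, chromosome X, 74254687 to 74261548, plus strand), the gene of emerin, had 6770 and 6224 in cKO libraries A and B, against 4955 and 5765 in wild-type libraries A and B. Both cKO libraries lay above both wild-type ones. The means were 6497 ± 386 (SD, n = 2) in cKO and 5360 ± 573 (SD, n = 2) in wild type, a log2 fold change of 0.28 (SE 0.18; limma, adjusted p = 0.771); leaving out cKO library A gave 0.22, and leaving out wild-type library A gave 0.17. Lemd3 (ENSMUSG00000048661, chromosome 10, 120923413 to 120979332, minus strand), the gene of MAN1, which binds SMAD proteins, had 2218 and 2389 in cKO libraries A and B, against 2467 and 2305 in wild-type libraries A and B. The groups overlap, and its log2 fold change was −0.05 (SE 0.18; limma, adjusted p = 0.921), and it was 0.042 after a rescaling of each library to 1 median and 0.0026 without cKO library A. The kit was stranded, per the design text, but whether counting used strand is not stated, so reads of Lbr, Tmpo, Sun1 and Sun2 cannot be told from those of annotated genes on the other strand, which share 440, 244, 302 and 147 exonic bases with them. Emd shares 343 exonic bases with an annotated pseudogene on its own strand.

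Among the LINC genes, Syne2 and Sun1 were lower in both cKO libraries, unlike the B-type lamins. Syne2 (ENSMUSG00000063450, chromosome 12, 75818134 to 76110926, plus strand), the gene of nesprin-2, a giant outer membrane protein that is needed for nuclear migration in the retina, had 4904 and 6987 in cKO libraries A and B, against 8305 and 7670 in wild-type libraries A and B. Both cKO libraries lay below both wild-type ones, and cKO library A was the lower of them. The means were 5945 ± 1473 (SD, n = 2) in cKO and 7988 ± 449 (SD, n = 2) in wild type, a log2 fold change of −0.45 (SE 0.23), the largest in size among the 10 genes, which did not pass (limma, adjusted p = 0.771). It was −0.19 without cKO library A. Sun1 (ENSMUSG00000036817, chromosome 5, 139200637 to 139249840, plus strand), an inner membrane SUN protein that binds nesprins, had 6817 and 6759 in cKO libraries A and B, against 8576 and 6856 in wild-type libraries A and B. The groups do not overlap, though cKO libraries A and B lay just below wild-type library B, and wild-type library A was the high one. Its log2 fold change was −0.18 (SE 0.19; limma, adjusted p = 0.774). It was −0.01 without wild-type library A.

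Sun2 (ENSMUSG00000042524, chromosome 15, 79724070 to 79742536, minus strand), the other main SUN protein of somatic cells, differed between the tags and hardly between the groups. It had 8564 and 6205 in cKO libraries A and B, against 8310 and 6004 in wild-type libraries A and B. The A library held 1.38 times the B value in cKO and 1.38 times in wild type, the opposite order to Lmna. The log2 fold change was 0.05 (SE 0.26; limma, adjusted p = 0.951). Of all tested genes 4.08% were higher in the A library by over 0.4 on the log2 scale in both groups, a limit chosen after the Sun2 values were seen.

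Of the 10 genes 0 passed in limma at an adjusted p under 0.05, where 0.00% of all tested genes did, and 0 of the 10 had an unadjusted p under 0.05, where 1.89% did. On the recovered reads 0 of the 10 passed in edgeR, beside 0.00% of all tested genes, and 0 in DESeq2, beside 0.00691%, so calls were absent or nearly so across the whole table. In the authors' deposited table all 10 genes had an adjusted p of 1.00. When cKO library B was left out 4 of the 10 passed in limma, Lmna and Syne2 lower and Lmnb1 and Lbr higher, beside 12.9% of all tested genes that were called higher, 26.9% called lower and 39.8% in either direction, so the share was near the background. That fit sets cKO library A alone against both wild-type libraries and assumes that it varies like them. When any other library was left out 0 of the 10 passed in limma, beside 0.373% of all tested genes without cKO library A and 0.00% without either wild-type library. Groups did not overlap for 2 genes that were higher in cKO, Emd and Tmpo, beside 17.2% of all genes, and for 2 that were lower, Sun1 and Syne2, beside 22.3%, or 39.5% in either direction. cKO library A lay outside the range of the wild-type libraries for all 10 genes, beside 87.7% of tested genes. It was the highest of the 4 libraries for 6 of the 10, beside 37.8%, and the lowest for 3, beside 44.7%. cKO library B lay inside the range of the wild-type libraries for 6 of the 10, beside 38.9%.

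Within tags the 10 genes came in a similar order but with different sizes. At tag A the log2 ratios of cKO over wild type were 0.57 for Lmnb1, 0.52 for Lbr, 0.47 for Tmpo, 0.45 for Emd, 0.31 for Lmnb2, 0.04 for Sun2, −0.15 for Lemd3, −0.33 for Sun1, −0.64 for Lmna and −0.76 for Syne2. At tag B the ratios were 0.11 for Lmnb1, 0.07 for Lbr, 0.10 for Tmpo, 0.11 for Emd, 0.07 for Lmnb2, 0.05 for Sun2, 0.05 for Lemd3, −0.02 for Sun1, −0.04 for Lmna and −0.13 for Syne2. B-type lamins, Lbr, Tmpo, Emd and Sun2 were thus higher in cKO at both tags, and Lmna, Sun1 and Syne2 lower. The same direction at both tags held for 9 of the 10 genes, beside 69.3% of tested genes, with 6 higher beside 32.7% and 3 lower beside 36.6%. Spearman's rho between the tags over the 10 genes was 0.903, given as a description; the tags share no library, and genes are not replicates. At tag B the sizes ranged from 0.02 to 0.13, where the interquartile range of all tested genes was −0.13 to 0.10. At tag A the interquartile range of all tested genes was −0.66 to 0.34.

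**Figure D2:**
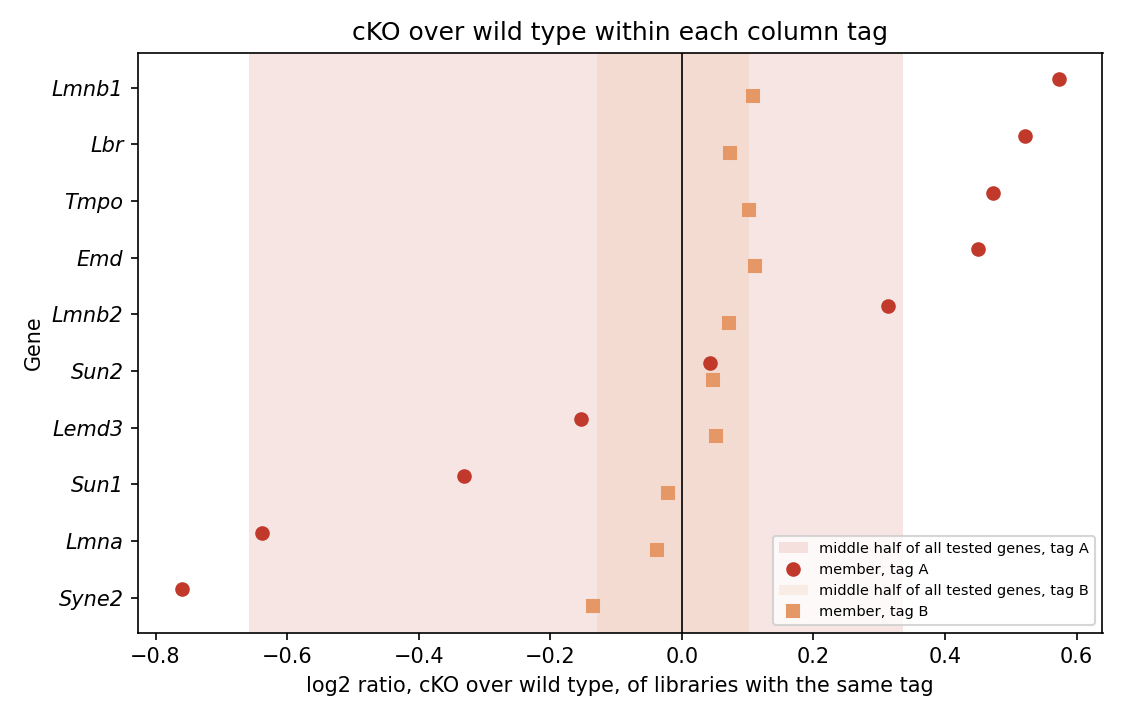
The log2 ratio of cKO over wild type (x axis) for each of the 10 genes (rows), between the A libraries (circles) and between the B libraries (squares), with the interquartile range of all tested genes shaded for each tag. The order of the genes is similar at both tags, from Lmnb1 at 0.57 and 0.11 to Syne2 at −0.76 and −0.13.

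The ratios at tag A ran with transcript length, a relation looked for after the values were seen, and its part in the result was not tested. Over the 99.2% of tested genes with an annotated transcript, the median log2 ratio at tag A was 0.21 in the quartile with the shortest transcripts, up to 2229 bases, and −0.27 in the quartile with the longest, above 4869 bases. At tag B the same medians were 0.04 and −0.02. Among the 10 genes, Emd has the shortest transcript, with 1595 bases, and Syne2 by far the longest, with 21704 bases, taking the longest annotated transcript of each. The lamins have 3948 bases for Lmna, 2843 for Lmnb1 and 3531 for Lmnb2. Spearman's rho of length with the tag A ratio was −0.624 over the 10 genes and −0.219 over all tested genes, and with the tag B ratio it was −0.661 over the 10 genes and −0.088 over all tested genes, as a description.

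Levels per length put Lmnb1 first and Lmna and Syne2 last among the 10 genes. Per kb of exon, Lmnb1 had normalized counts of 21102 and 13288 in cKO libraries A and B, against 14188 and 12331 in wild-type libraries A and B. Tmpo followed with a mean over the 4 libraries of 3976 per kb, then Lbr with 3051, Emd with 2355, Lmnb2 with 1502, Sun2 with 1341, Sun1 with 955, Lemd3 with 488, Lmna with 306 and Syne2 with 261. Sun1 and Sun2 change places when the length of the longest transcript is used in place of all exonic bases. Lmna had 144 and 423 per kb in cKO libraries A and B, against 224 and 434 in wild-type libraries A and B. Neighbours whose ranges over the 4 libraries overlap were Tmpo and Lbr, Lbr and Emd, Lmnb2 and Sun2, Sun2 and Sun1, and Lmna and Syne2. Lmnb1 stood above Tmpo in every library, and Lemd3 stood above Lmna and Syne2 in every library. Lmna was the last of the 10 in both A libraries and the ninth in both B libraries.

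**Figure D3:**
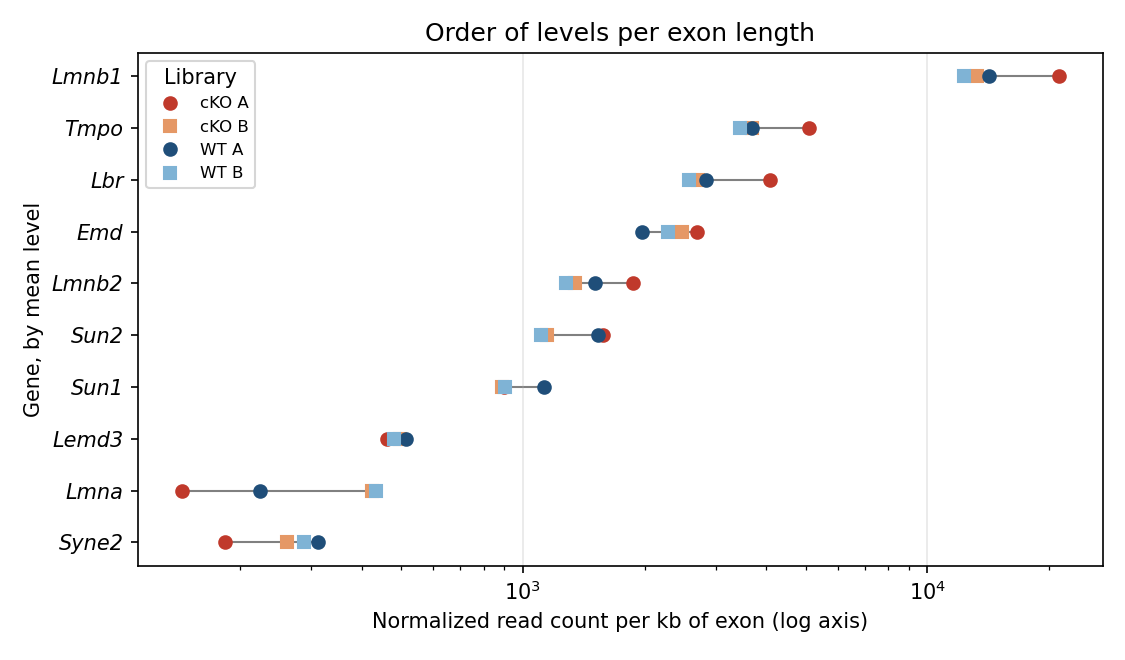
Normalized read counts per kb of exon on a log axis for the 10 genes in order of their mean, with 1 point per library and a grey line over the range of the 4 libraries. Lmnb1 lies apart at the top, with 12331 to 21102 per kb, and Lmna has the widest range on the log axis, from 144 to 434 per kb.

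A ratio within a library does not depend on its size factor, so the balance of lamins was compared in that way. Per kb, Lmna stood at 0.625% and 2.89% of the sum of Lmnb1 and Lmnb2 in cKO libraries A and B, against 1.43% and 3.19% in wild-type libraries A and B. Relative to Lbr, Lmna stood at 3.52% and 15.6% in cKO libraries A and B, against 7.87% and 16.9% in wild-type libraries A and B. At each tag both ratios were lower in cKO, but the tags differ by more than the groups, so the groups overlap. The mean log2 ratio of Lmna to B-type lamins was −6.22 ± 1.56 (SD, n = 2) in cKO and −5.55 ± 0.82 (SD, n = 2) in wild type, a difference of −0.67 (two-sided exact permutation test, p = 0.667). The difference for Lmna to Lbr was −0.64 (two-sided exact permutation test, p = 0.667). With 2 libraries against 2, 0.333 is the smallest p that this exact test can give. Without cKO library A both differences were 0.44.

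The genes whose profiles over the 4 libraries were most like that of Lmna were Isl1, Foxp2 and Gnal, out of 11768 other genes with a mean of at least 100. Likeness was the root mean square distance of log2 profiles centred on their means, 0.059, 0.068 and 0.104 for these genes. Isl1, a homeodomain factor of ganglion and other inner retinal neurons, had 210 and 634 in cKO libraries A and B, against 316 and 583 in wild-type libraries A and B. Foxp2, a forkhead factor of neurons, had 279 and 790 in cKO libraries A and B, against 384 and 827 in wild-type libraries A and B. Gnal, a G protein alpha subunit, had 657 and 1630 in cKO libraries A and B, against 856 and 1727 in wild-type libraries A and B. The nearest to Lbr were Alg14, of protein glycosylation, Gpm6a, a neuronal membrane glycoprotein, and Letm1, of the mitochondrial inner membrane, with distances of 0.002, 0.012 and 0.012. Lmnb1, Tmpo and Lmnb2 were at 0.041, 0.045 and 0.074 from Lbr, and Lmna was at 0.910. As many as 1169 genes lay within 0.1 of Lbr, so nearness to it was common. Distances are not scaled for how far a gene varies, so they are not compared between Lmna and Lbr.

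**Figure D4:**
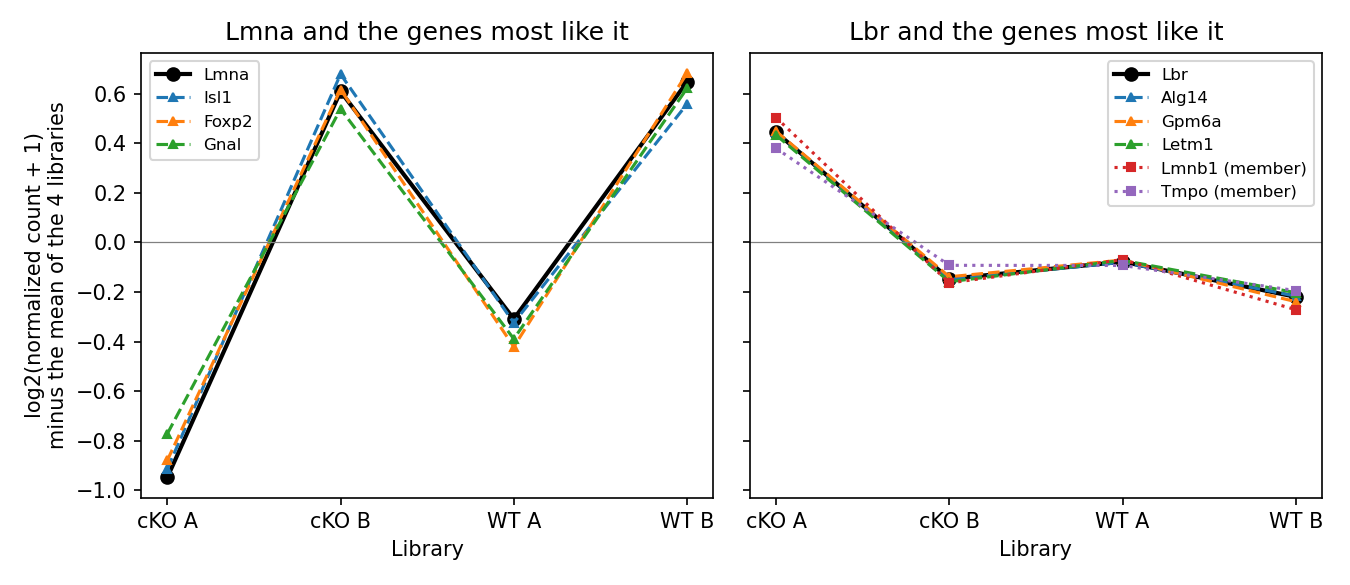
Values on the log2(normalized count + 1) scale, minus the mean of the 4 libraries, in cKO libraries A and B and wild-type libraries A and B, for Lmna (left) and Lbr (right), each with the 3 genes most like it and, for Lbr, also Lmnb1 and Tmpo. Lines only join the values of 1 gene; Lmna and its neighbours are low in both A libraries, and Lbr and its neighbours are high in cKO library A.

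Other genes of the envelope, in 5 related lists of 74 genes, of which 73 were tested, gave 0 calls in limma, and 0 had an unadjusted p under 0.05. Groups did not overlap for 12 of the 73 that were higher in cKO, beside 17.2% of all tested genes, and for 12 that were lower, beside 22.3%. The median log2 fold change of all tested genes was −0.03, with 6769 higher and 7711 lower, and that of the 10 genes was 0.12, with 6 higher and 4 lower. Over genes of lamin processing and envelope assembly the median was 0.10, and 9 of 12 were higher. It was 0.23 within tag A and 0.018 within tag B, and 0.0046 without cKO library A against 0.21 without cKO library B. In that list Banf1, the chromatin protein that LEM domains bind, had 11243 and 9931 in cKO libraries A and B, against 7824 and 8754 in wild-type libraries A and B. Both cKO libraries lay above both wild-type ones, as for Emd, and the log2 fold change of Banf1 was 0.35 (SE 0.18; limma, adjusted p = 0.771). Vrk1, a kinase that acts on the Banf1 protein, had 0.24 and Ctdnep1, a phosphatase of the nuclear envelope, had 0.33. Within tags A and B the log2 ratios were 0.52 and 0.18 for Banf1, 0.37 and 0.11 for Vrk1, and 0.60 and 0.06 for Ctdnep1.

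Over other LEM-domain and inner membrane genes the median log2 fold change was −0.03, or 0.066 with median rescaling, and 5 of 12 were higher. It was 0.036 within tag A and −0.032 within tag B, and without 1 library it ran from −0.061 to 0.091. Among them Nrm, the gene of nurim, had 0.22, Tor1aip1, which binds torsin A, had −0.05 and Ankle2, which acts on the Banf1 protein at the end of mitosis, had −0.38. Ankle2 had normalized counts of 2925 and 4718 in cKO libraries A and B, against 4830 and 4861 in wild-type libraries A and B, so cKO library A was the low one. Its log2 ratio was −0.72 within tag A and −0.04 within tag B. Over other LINC genes the median was −0.29, and 2 of 8 were higher. It was −0.49 within tag A and −0.10 within tag B, −0.14 without cKO library A, −0.46 without cKO library B and −0.10 over genes with a mean of at least 50. Sun3 was at 0 in cKO library A and had 36.4 in cKO library B, against 27.3 and 19.3 in wild-type libraries A and B. Those with the highest counts were Tmem201, an inner membrane protein, at −0.10, Tmem43, which binds emerin, at 0.22, and Fhod1, a formin that binds nesprin-2, at −0.05. Sun5 was at 0 in all 4 libraries, and 0 reads allow up to 3 reads, or normalized counts of 8.38 in cKO library A and 1.98 to 2.28 in the others, for counting error only.

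Over genes of peripheral heterochromatin the median log2 fold change was −0.06, or 0.029 with median rescaling, and 5 of 13 were higher. It was −0.15 within tag A and −0.02 within tag B, and 0.0091 without cKO library A against −0.13 without wild-type library B. Cbx5, the HP1 alpha protein that binds the lamin B receptor, had 18840 and 27640 in cKO libraries A and B, against 25991 and 29743 in wild-type libraries A and B, a log2 fold change of −0.28 (SE 0.24; limma, adjusted p = 0.771). cKO library A was the low one, the reverse of Lbr. Trim28, a corepressor, had 0.31 and Ehmt2, a histone H3 methyltransferase, had −0.06. Over nuclear pore genes the median was 0.08, and 17 of 28 were higher. It was 0.14 within tag A, with 16 of 28 higher, and −0.0033 within tag B, with 13 of 28 higher, while leaving out cKO library A gave 0.030, and leaving out wild-type library A gave 0.034. Pom121, a pore membrane protein, had 0.20 and Nup205, a scaffold subunit, had 0.02. Tpr, of the nuclear basket, had 6742 and 18484 in cKO libraries A and B, against 15430 and 19054 in wild-type libraries A and B, a log2 fold change of −0.62 (SE 0.47; limma, adjusted p = 0.771). Its log2 ratio was −1.19 within tag A and −0.04 within tag B.

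**Figure D5:**
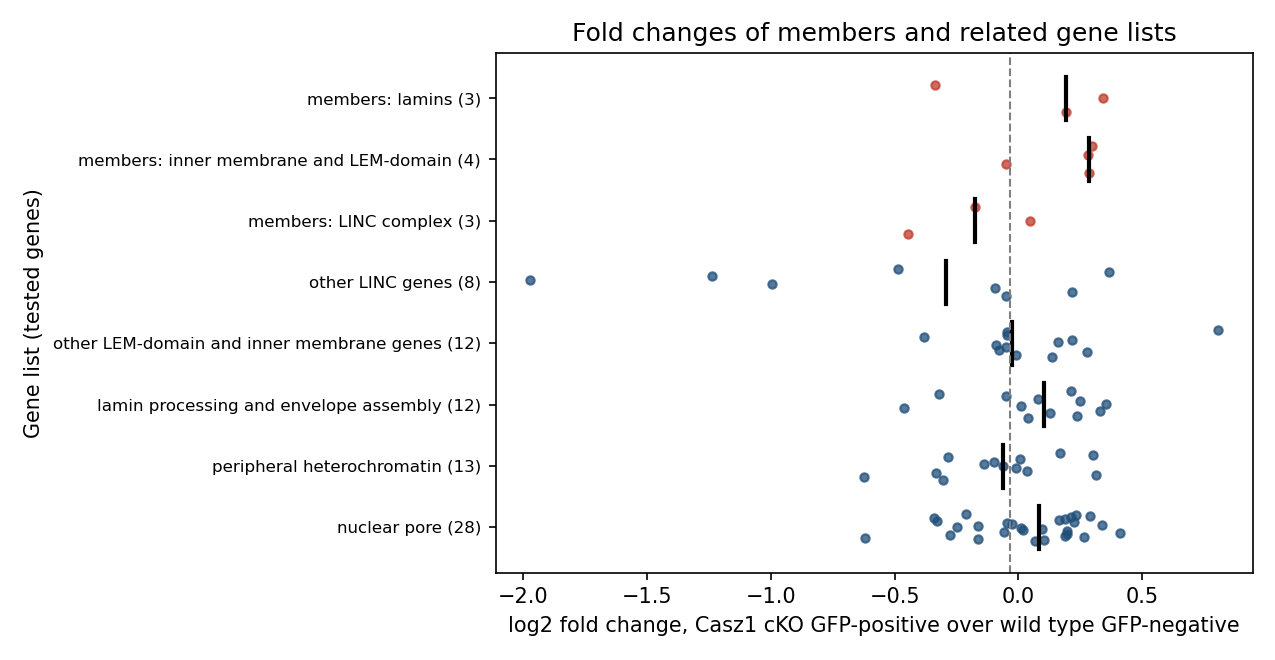
Log2 fold changes of cKO over wild type (x axis) for the tested genes of the member groups (red) and of 5 related lists (blue), with the number of genes in brackets, a black bar at each median and a dashed line at the median of all tested genes, −0.03. Medians run from −0.29 for other LINC genes to 0.28 for the inner membrane and LEM-domain members.

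Summed markers of microglia, rod precursors, astrocytes and pigment epithelium were lower in both cKO libraries, those of endothelial and inner retinal cells overlapped, 0 of these markers passed in limma, and their part in the results on lamina genes was not tested. Microglial markers were lower in cKO for 12 of 12 genes, with summed normalized counts of 2327 and 11487 in cKO libraries A and B, against 24777 and 24301 in wild-type libraries A and B, and Aif1 was at 0 in cKO library A. Rod precursor markers were lower for 7 of 8 genes, with sums of 49427 and 57952 in cKO libraries A and B, against 96912 and 86444 in wild-type libraries A and B. Retinal astrocyte markers were lower for 5 of 5 genes. Groups did not overlap for 4 of them, all but Aldh1l1, where 22.3% of all tested genes were lower without overlap. The sums were 953 and 800 in cKO libraries A and B, against 1641 and 1095 in wild-type libraries A and B. Most of these sums was Pdgfra, so they say little about the other astrocyte markers. S100b was at 0 in cKO library A. The sums of endothelial and mural markers overlapped, with 50536 and 40664 in cKO libraries A and B, against 44607 and 39687 in wild-type libraries A and B. Most of these sums was Kdr, with 48370 and 38675 in cKO libraries A and B, against 42492 and 37659 in wild-type libraries A and B. They thus say little about the other markers of that list. Of the 9 endothelial and mural markers that were tested 4 were higher in cKO and 5 lower. Groups did not overlap for 2 that were higher, Flt1 and Pdgfrb, beside 17.2% of all tested genes. They did not overlap for 2 that were lower, Pecam1 and Rgs5, beside 22.3%. Of the 10 endothelial and mural markers 4 were at 0 in cKO library A, Pecam1, Cdh5, Tek and Acta2, which had at most 84.3 in any other library. Pigment epithelium markers summed to 279 and 346 in cKO libraries A and B, against 464 and 369 in wild-type libraries A and B. Of the 3 that were tested, groups did not overlap for only 1, Tyrp1, and those of Dct and Pmel overlapped. Tyrp1 had 0 and 85.9 in cKO libraries A and B, against 142 and 108 in wild-type libraries A and B. Of the pigment epithelium markers, Rpe65, Tyr, Tyrp1 and Mlana were at 0 in cKO library A, and Rpe65 was also at 0 in wild-type library A. In cKO library A 0 reads allow normalized counts of up to 8.38, and Rpe65, Tyr and Mlana had at most 8.35 elsewhere. The zeros of these genes thus say little. cKO library A had 9179 genes at 0, and the other libraries had 5793 to 6169. Ganglion, amacrine and horizontal cell markers overlapped and summed to 32145 and 30329 in cKO libraries A and B, against 36502 and 28981 in wild-type libraries A and B. Most of these sums was Tfap2b and Tfap2a, so they say little about the rarer markers of that list. In it 2 of 10 genes were higher in both B libraries than in both A libraries, as Lmna was, a share near the 22.9% of all tested genes. The same held for 2 of 10 retinal progenitor, 3 of 10 endothelial and mural and 1 of 6 pigment epithelium markers. It held for 0 of 8 rod precursor, 0 of 12 microglial and 0 of 5 astrocyte markers. The endothelial and mural genes were Cdh5, Tek and Acta2, and the pigment epithelium gene was Rpe65. All of these were at 0 in cKO library A and had at most 23.5 elsewhere, so their order says little. Tek and Rpe65 did not pass the filter on low levels. The 2 genes of the ganglion, amacrine and horizontal list were Isl1, given above as the gene most like Lmna, and Sncg. Sncg had 405 and 965 in cKO libraries A and B, against 409 and 911 in wild-type libraries A and B.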

How the data were processed

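The authors deposited 1 table of normalized counts, a signal of reads per gene scaled by a size factor for each library, as its header and values show. Every value (100%) gave a whole number of reads to within 0.01, and these recovered reads served the count tests. Both cKO columns are headed replicate 2, so they were tied to their group and to no numbered sample. FastQC, TopHat, HTSeq, DESeq and mm10 are named per the submitters' processing notes; their versions, the annotation and the use of strand are not stated. The p-values and adjusted p-values in the deposited table are the authors' own.

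The 10 genes and the lists were chosen with earlier results of these data known. The test was limma 3.58.1 on log2(normalized count + 1), for genes whose mean reached 10, with a mean-dependent prior, Benjamini-Hochberg adjustment over 14480 genes and a threshold of 0.05; fold changes are differences on this scale. With 2 libraries in each group there are 2 residual degrees of freedom. Libraries of a group differed by more than sampling noise (chi-square of 126 per degree of freedom in cKO and 74.1 in wild type). All members are named; each related list gives the 3 genes with the highest mean, since none passed, and the libraries of Ankle2, Tpr, Cbx5 and Banf1 are given because of their values. Sun3, Sun5 and single markers are named where they were at 0 in a library. Ccnd1, Pax6, Kdr, Flt1, Pdgfrb, Rgs5, Pdgfra, Aldh1l1, Tfap2a, Tfap2b and Sncg are named after their values were seen. Positions and exon lengths were read from GENCODE M21 (GRCm38), which holds 96.1% of the gene identifiers. Alternatives were other pseudocounts, filters, a median rescaling, no mean-dependent prior, edgeR 4.0.16 and DESeq2 1.42.0 on recovered reads, a block for the tags and leaving out each library, in R 4.3.3. The fitting code was tested on simulated data.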

Additional observations from a re-analysis of the deposited data

How the results depend on the processing

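In limma 0 genes passed, and 0 did with every other limma setting that kept all libraries and with edgeR, but 1 did with DESeq2 (Nr2e3, lower). Over fits that each omit 1 library this count ran from 0 to 5768, with 54 when cKO library A was omitted and 5768 when cKO library B was. With the replicate block for the shared tags 0 genes passed in limma, where 1375 had an unadjusted p under 0.05, and, in a fit chosen after seeing the data, 0 in edgeR, where 965 did. The block moved no call of the 10 genes. Same-tag libraries deviate together with a correlation of 0.258 across genes, and no label ties the tags to an experiment. Over 10 other settings with all libraries, 1 of 100 fold changes of the 10 genes turned sign, that of Lemd3 (0.042 with median rescaling, which shifts the median of all genes by 0.09). Their adjusted p-values ran from 0.543 to 0.976 in limma, edgeR and DESeq2.

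Omitting 1 library at a time gave log2 fold changes from −1.12 to 0.44 for Lmna, with 0.14 without wild-type library B. The range was 0.0067 to 0.67 for Lmnb1, −0.046 to 0.43 for Lmnb2, 0.0017 to 0.59 for Lbr, 0.17 to 0.39 for Emd, 0.05 to 0.52 for Tmpo, −0.10 to 0.0026 for Lemd3, −0.34 to −0.01 for Sun1, −0.19 to 0.28 for Sun2 and −0.70 to −0.19 for Syne2. Lmna, Lmnb1, Lbr and Syne2 passed without cKO library B (limma, adjusted p = 0.000935, 0.0201, 0.0149 and 0.00285) and not without any other library. The difference in the log2 ratio of Lmna ran from −1.77 to 0.44 against B-type lamins and from −1.71 to 0.44 against Lbr. List medians with median rescaling were 0.21 for the 10 genes, 0.066 for other LEM-domain genes and 0.029 for heterochromatin genes. Over omitted libraries they ran from 0.0022 to 0.31 for the 10 genes, −0.061 to 0.091 for other LEM-domain genes, 0.0046 to 0.21 for lamin processing, −0.46 to −0.14 for other LINC genes, −0.13 to 0.0091 for heterochromatin genes and 0.030 to 0.12 for nuclear pore genes. The cause was not tested in any of these cases. Fits with 1 library against 2 assume that the lone library varies like the others.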
